A study of Mus musculus with 59 samples.

Results

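Immediate early genes are transcribed within minutes of a stimulus because the factors that switch them on are already present in the resting cell, and most of their mRNAs and proteins are short-lived. They are known for their response to serum and growth factors, to membrane depolarisation and contraction, to cell stress and to the handling of tissue, and in liver and muscle they are classical markers of recent stimulation or injury. Here 10 of them, Fos, Fosb, Jun, Junb, Egr1, Atf3, Ier2, Ier3, Klf6 and Nr4a1, were followed through 59 mouse bulk RNA-seq libraries in 4 tables of normalized gene counts. The 10 genes were chosen by symbol, and each was found once among the 24972 genes listed in every table. Fos and Fosb encode Fos proteins and Jun and Junb encode Jun proteins, which pair to form the transcription factor AP-1. Atf3 encodes a basic leucine zipper factor of the ATF/CREB group that is induced by stress, Egr1 and Klf6 encode zinc finger transcription factors, and Nr4a1 encodes an orphan nuclear receptor. Ier2 and Ier3 encode small proteins, of which IER3 is known for a role in cell survival.

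The libraries came from a study of hydroxycitrate (HC), a fruit acid that inhibits ATP citrate lyase, the enzyme encoded by Acly that makes cytosolic acetyl-CoA. AML12 cells, a mouse hepatocyte line kept with serum and dexamethasone, were transfected with siRNA that either targets Acly (siAcly) or serves as control (siC) and, 24 h later, no agent (Ut), 1 mM HC, 10 µM SB-204990 (SB, another ATP citrate lyase inhibitor) or 30 µM bempedoic acid (Bemp) for 16 h, with 3 libraries in each of the 8 groups. Liver and soleus muscle came from wild-type male C57BL/6 mice of 41 weeks fed a standard diet (STD) or the same diet with HC at 7.5 g/kg for 21 weeks and fasted for 16 h, with 5 libraries per group. Gastrocnemius muscle came from wild-type male C57BL/6 mice of 6 ± 1 months that were uninjured (C) or injected with 10 µM cardiotoxin (CTX), a venom protein that lyses muscle fibres, and taken 2 or 30 days post injury (DPI), with HC in the diet after the injury (CTX-HC) or without it, and 3 libraries per group. The mice of the day 2 groups had earlier served as uninjured controls in physical tests. HC was given to the whole animal, and no mouse carried a genetic change. Whether the AML12 libraries of a group are separate cultures is not given in the labels, nor is the mouse behind a muscle library. For gastrocnemius, the study describes each library as the sample of a single mouse. The p-values measure the spread between these libraries.

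Several libraries went against their labels or stood apart from their groups. In AML12 cells Acly lay between 215 and 599 in the 12 siAcly libraries and between 2576 and 3860 in 11 of the 12 siC libraries, but was 404 in the library labelled siC Bemp replicate 1. Cyp1a1, which separated the Bemp libraries from the others, was 917 in the library labelled siC Ut replicate 3 against at most 495 in the 17 other libraries without Bemp, and was 236 in the library labelled siC Bemp replicate 1 against 678 to 1255 in the other 5 Bemp libraries. Liver STD replicate 5 held mRNA of muscle fibres: the sum over 10 fibre markers was 958, with Acta1 at 402, against at most 10.3 in the other 9 liver libraries. In gastrocnemius the library labelled CTX-HC 30 DPI replicate 3 had a sum of 8445 over 12 leukocyte markers against 763 and 805 in the other libraries of its group. CTX 30 DPI replicate 1 had a leukocyte sum of 5408 against 614 and 589 and a sum of 73875 over 6 fibroblast markers against 13969 and 14733. CTX 2 DPI replicate 3 had a leukocyte sum of 1911 against 10330 and 7223, within the 803 to 3675 of C. Its sum over 10 fibre markers, 3314720, also lay within the C range of 3150690 to 4264590. Its fibroblast sum of 28312 lay above the C range of 11991 to 16271. Estimated from the commonest step between low values, the depth in units of 1e6 reads was 7.31 to 16.3 in AML12, 7.69 to 13.1 in liver, 8.93 to 11.2 in soleus and 16.0 to 34.9 in gastrocnemius.

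Upstream sequences are shown for those called members that held the sequence TGACG, the core of the cAMP response element to which CREB and ATF proteins bind, since 5 of the members passed the test in at least 1 comparison below and 4 of these, Fos, Junb, Atf3 and Nr4a1, held it. The sequences are the 250 bases before the RefSeq transcription start on GRCm38.p6 (mm10), 5′ to 3′ on the strand of the gene. Fos lies at chr12:85473640-85473889 on the plus strand, Junb at chr8:84978749-84978998 on the minus strand, Atf3 at chr1:191183334-191183583 on the minus strand and Nr4a1 at chr15:101266596-101266845 on the plus strand. Capitals mark TGACG or its complement CGTCA and, in Fos, the TATA box TATAAA.
Fos: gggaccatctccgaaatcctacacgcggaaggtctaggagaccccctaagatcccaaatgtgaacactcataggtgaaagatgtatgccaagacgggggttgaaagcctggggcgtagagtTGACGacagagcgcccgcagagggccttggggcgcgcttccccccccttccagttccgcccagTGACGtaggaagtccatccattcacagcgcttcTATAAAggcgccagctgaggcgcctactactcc
Junb: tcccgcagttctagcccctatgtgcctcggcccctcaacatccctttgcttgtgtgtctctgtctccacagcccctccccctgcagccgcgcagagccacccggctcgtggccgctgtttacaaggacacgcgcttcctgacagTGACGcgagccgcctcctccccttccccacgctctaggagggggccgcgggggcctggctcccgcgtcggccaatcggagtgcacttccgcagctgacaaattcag
Atf3: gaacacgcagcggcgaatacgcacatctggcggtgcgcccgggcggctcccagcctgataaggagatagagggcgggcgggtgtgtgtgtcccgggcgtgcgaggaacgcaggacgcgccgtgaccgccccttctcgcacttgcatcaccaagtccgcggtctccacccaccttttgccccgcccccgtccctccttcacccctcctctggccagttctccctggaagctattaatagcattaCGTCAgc
Nr4a1: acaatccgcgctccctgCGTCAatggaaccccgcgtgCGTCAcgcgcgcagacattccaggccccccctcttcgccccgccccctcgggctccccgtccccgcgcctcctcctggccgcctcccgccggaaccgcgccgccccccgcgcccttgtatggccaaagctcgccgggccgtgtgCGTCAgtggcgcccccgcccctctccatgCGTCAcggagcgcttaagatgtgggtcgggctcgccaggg

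Positions below count from 0 at the start base. TGACG stood at −129 to −125 and −66 to −62 in Fos, at −106 to −102 in Junb and at −7 to −3 in Atf3. Nr4a1 held it 4 times, at −233 to −229, −213 to −209, −69 to −65 and −40 to −36. Egr1 and Ier2 were not searched, and the counts that follow do not cover them. Of the 8 members whose sequence was searched 5 held TGACG on either strand, against 17.8% of all 32851 mouse promoter windows. Beside the 4 shown above, Fosb was the other. The complete element TGACGTCA, which contains the core, was in 0 of the 8 members and 1.55% of all windows, the AP-1 site TGANTCA in 0 and 6.75%, and the serum response element core known as the CArG box in 0 and 1.47%. The EGR site GCGGGGGCG was in 2 of the 8, Fosb and Nr4a1, and in 2.57% of all windows, and TATAAA in 1, Fos, and in 12.4%. Ier3, the other called member, held none of the 6 motifs. These matches describe letters in a 250-base window and were chosen after the sequences were seen. The Atf3 and Nr4a1 windows lie inside the longer annotated genes, since the start used is not the most distant annotated start.

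The genes themselves are protein-coding, and their annotated spans on mm10 were as follows. The AP-1 genes Fos, Fosb, Jun and Junb lie at chr12:85473890-85477273, chr7:19302696-19310051, chr4:95049034-95052222 and chr8:84974484-84978718. Atf3 spans chr1:191170296-191218039, Klf6 chr13:5861482-5870394 and Nr4a1 chr15:101254269-101274795. Ier2 lies at chr8:84661331-84662852 and Ier3 at chr17:35821684-35822923, and Egr1 is on chromosome 18.

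The order of the members differed between the 4 tables. Divided by exon length in kilobases, Junb was the most abundant member in AML12 cells, with group means between 1277 and 2440 normalized counts per kilobase, followed by Ier3 at 658 to 1178 and Ier2 at 392 to 587. In liver Junb also stood highest per kilobase, at 136 to 185, with Ier2 at 119 to 142 and Jun at 103 to 116. In both muscles other members led. Soleus was headed per kilobase by Jun in STD, at 598 against 513 for Atf3 and 436 for Nr4a1, and by Atf3 in HC, at 1676 against 640 for Jun and 628 for Nr4a1, where 3 of the 5 libraries carried the Atf3 mean. In gastrocnemius Nr4a1 stood above Jun in C (1478 against 1224) and CTX-HC 30 DPI (1278 against 1006), and Jun above Nr4a1 in CTX 2 DPI (1707 against 790), CTX-HC 2 DPI (1115 against 445) and CTX 30 DPI (1385 against 1242). Fosb was the lowest member per kilobase in all 4 tables. Its values in AML12 cells, 0.933 to 14.8 normalized counts, start at an estimated 0.982 reads, and in liver, the median value was 2.33. The tables were normalized separately, so levels are ordered here within a table and not compared across tables.

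In AML12 cells members passed the test for Acly silencing and for no agent. Tests used limma on log2(value + 1), with Benjamini-Hochberg adjustment over all genes tested and a call at an adjusted p under 0.05. Junb was 2939, 2914 and 2960 normalized counts in siC Ut replicates 1 to 3 and 4977, 5369 and 6494 in siAcly Ut. The siAcly values were all above the siC values, and Junb rose by 0.92 (log2 fold change, SE 0.16, n = 3 per group, adjusted p = 0.0287). It was 1 of 10 members called higher, where 0.138% of the 12296 genes tested rose and 0.0488% fell. Ier3 was 700, 795 and 737 in siC Ut and 1107, 1083 and 1807 in siAcly Ut, which also did not overlap, with a log2 fold change of 0.80 (SE 0.18) and an adjusted p of 0.0672. No other member's groups were apart, and over the 10 members the median log2 fold change was 0.60, against −0.03 over all genes tested. The share of all genes that lay apart was not counted for contrasts between AML12 groups. The Junb call was lost in 5 of the 6 fits that each left out 1 of these libraries, with an adjusted p between 0.0218 and 0.225, and it was lost without the library labelled siC Ut replicate 3 and the library labelled siC Bemp replicate 1 together, where the log2 fold change was 0.93 and the adjusted p 0.213.

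Averaged over the 4 treatments, Junb and Ier3 rose with siAcly, which made 2 of 10 members, where 2.73% of all genes rose and 2.03% fell. Junb was 4744 ± 774 normalized counts in the 12 siAcly libraries and 3372 ± 496 in the 12 siC libraries (mean ± SD), a log2 fold change of 0.49 (SE 0.08, adjusted p = 0.00188). The call was kept in all 24 fits that left out 1 library. Junb ran from 3321 to 6494 in siAcly and from 2914 to 4388 in siC, so the 2 arms overlapped. Ier3 was 1010 ± 276 in siAcly and 785 ± 99.2 in siC, a log2 fold change of 0.33 (SE 0.09, adjusted p = 0.0379), and this call was lost in 14 of the 24 fits without 1 library, with an adjusted p up to 0.0815. Without the libraries labelled siC Bemp replicate 1 and siC Ut replicate 3, Junb kept its call (0.48, adjusted p = 0.00841) and Ier3 did not (0.30, adjusted p = 0.107). Fos, at 30.4 ± 9.53 and 22.3 ± 6.99 normalized counts, had a log2 fold change of 0.43 (SE 0.20, adjusted p = 0.219) and Atf3 of 0.49 (SE 0.28, adjusted p = 0.317). Jun and Egr1 were the 2 members with a lower average in siAcly on the log2 scale, at −0.20 (SE 0.14) and −0.02 (SE 0.29).

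HC, SB and Bemp gave no call for any member in cells with control siRNA or with siAcly. By limma 0% of genes were called for HC, SB and Bemp in siC cells, where 42, 70 and 240 genes and none of the members had an unadjusted p under 0.05. For the same agents in siAcly cells 0% were called in each case, with 271, 1648 and 314 genes at an unadjusted p under 0.05, among them 1, 2 and 1 of the members. These members were Ier3 in all 3 contrasts and Junb with SB. In siC cells Junb was 2946, 2977 and 4388 with HC, 3601, 3186 and 3906 with SB and 3352 and 4000 with Bemp in replicates 2 and 3, beside 3289 in the library labelled siC Bemp replicate 1. All SB and Bemp values lay above the siC Ut values of 2914 to 2960, and the HC values overlapped with them. By mean, siC Ut was the lowest of the 8 groups for Junb. Against siC Ut the 95% interval of the Junb log2 fold change ran from −0.13 to 0.54 for HC, from −0.06 to 0.61 for SB and from −0.07 to 0.60 for Bemp. Without the libraries labelled siC Bemp replicate 1 and siC Ut replicate 3 these intervals ran from −0.19 to 0.60, from −0.12 to 0.68 and from −0.11 to 0.76. In siAcly cells the Junb values were 4116, 5071 and 4809 with HC, 4871, 3321 and 4046 with SB and 4620, 4605 and 4634 with Bemp. All but the 5071 lay below the 3 siAcly Ut values, and the log2 fold change against siAcly Ut was −0.26 (SE 0.16, adjusted p = 1) for HC, −0.47 (SE 0.16, adjusted p = 0.331) for SB and −0.27 (SE 0.16, adjusted p = 0.999) for Bemp. Ier3 in siAcly cells was 836, 911 and 899 with HC and 900, 711 and 924 with SB, below all 3 siAcly Ut values in both cases, with log2 fold changes of −0.55 (SE 0.18, adjusted p = 1) and −0.62 (SE 0.18, adjusted p = 0.331). For Atf3 and Nr4a1 the intervals were wide: with Bemp in siC cells Atf3 had a log2 fold change of 1.13 (95% interval −0.04 to 2.29) and Nr4a1 of 0.69 (−0.64 to 2.02), and without those 2 libraries of 0.65 (−0.81 to 2.11) and 0.68 (−1.04 to 2.40). Ordered by mean, none of the neighbouring groups of the 8 had separate ranges for any member.

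Much of the spread of these genes within AML12 groups followed 3 sets of libraries that cut across the groups. The sets were found by clustering the 1000 most variable other genes with a mean value above 100 after subtracting group means, without the members or any listed gene. Set A held 9 libraries, set B 8 and set C 7, and set C was the library number series 81 to 87 of the titles. Replicates 1 to 3 of siC Ut were in sets A, B and B, and those of siC Bemp in sets A, A and C. Each of the other groups held a library of every set. The contrasts with siC Ut above, among them Atf3 with Bemp and the rank of siC Ut for Junb, thus compare groups of unlike sets. The part of the sets in these differences was not tested. Egr1 was 795 to 1591 normalized counts in set A, 312 to 434 in set B and 329 to 451 in set C, and Atf3 was 129 to 269 in set A, 45.6 to 93.6 in set B and at most 201 in set C. Egr1 in set A was thus above every library of the other sets. Klf6 was 1131 to 1924 in set A, 648 to 764 in set B and 1152 to 1536 in set C. Jun took the opposite order, at 275 to 467 in set A, 517 to 733 in set B and 299 to 422 in set C, so that every set B library was above all others. Nr4a1 was 36.8 to 160, 18.9 to 29.3 and 64.0 to 113. The share of the within-group variance on the log2 scale that lay between sets was 93.0% for Egr1, 90.4% for Atf3 and 88.0% for Klf6. It was 79.5% for Ier2, 75.9% for Jun, 74.95% for Nr4a1, 61.5% for Fos and 44.5% for Fosb, against 15.6% for Junb and 4.68% for Ier3. This share was computed for the members alone. Whether it differs from the share in other genes was not tested. The labels do not say what the sets are. Within sets A, B and C the mean log2 difference of siAcly minus siC was 0.48, 0.72 and 0.17 for Junb, 0.49, 0.32 and 0.13 for Ier3 and 0.47, 0.63 and 0.45 for Atf3, whereas for Fosb it was 1.30, −1.35 and 0.45. The arms follow the labels. The library labelled siC Bemp replicate 1, whose Acly was at the siAcly level, thus counts as siC in set A. The comparison within sets was not repeated without it. In set A the siAcly libraries lay wholly above the siC libraries for 0 of 10 members, where 3.3% of all genes tested did so, and wholly below for 0, where 2.66% did. In set B they lay above for 3, Junb, Ier3 and Atf3 (11.9% of all genes), and below for 1, Fosb (10.3%). In set C they lay above for 3, Fos, Atf3 and Klf6 (12.8% of all genes), and below for 0 (12.4%). Junb and Ier3 thus overlapped in sets A and C.

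**Figure D1:**
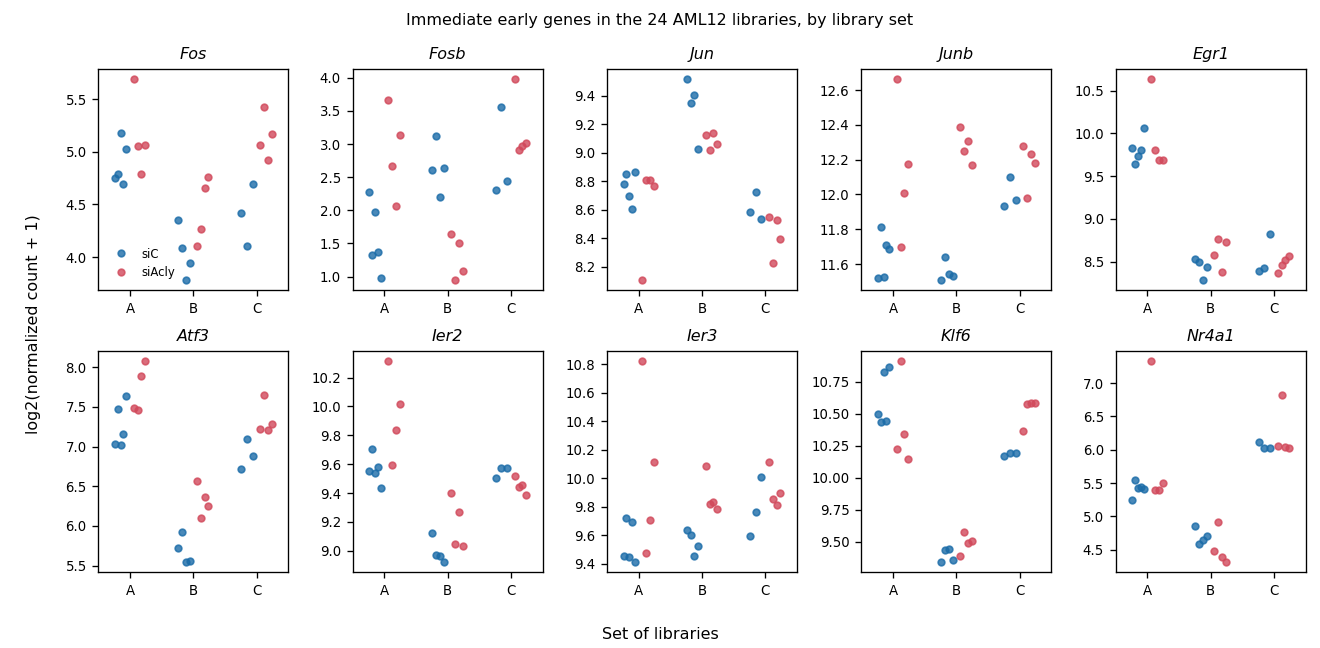
Level of each member as log2(normalized count + 1) on the y axis in the 24 AML12 libraries, by library set (A, B, C) on the x axis, with libraries labelled siC in blue and those labelled siAcly in red. Egr1 in set A (795 to 1591 normalized counts) stands above sets B and C (312 to 451) in both colors, and Junb in set B runs from 4605 to 5369 in siAcly and from 2914 to 3186 in siC libraries.

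With the library set as a term in the fit, an alternative added after the data were seen, 4 members were called for siAcly averaged over treatments: Junb, Ier3, Fos (log2 fold change 0.45, adjusted p = 0.0327) and Atf3 (0.52, adjusted p = 0.00148). In the untreated contrast Junb and Ier3 were then called, with Ier3 at 0.77 and an adjusted p of 0.0156. Under that fit 1058 genes passed in the untreated contrast, against 23 without the term, and 2912 against 586 for the average. The sets were drawn from the deviations of these same libraries from their group means. The term therefore takes up spread within groups by its making, and the adjusted p values of this fit may be too small. Its added calls are not independent support. The fit kept all libraries as labelled and was not repeated without those labelled siC Bemp replicate 1 and siC Ut replicate 3. The untreated siAcly group held the library with the highest value of Egr1, Junb, Ier2, Ier3, Nr4a1 and Fos among all 24: replicate 3, with Egr1 at 1591, Junb at 6494, Ier2 at 1272, Ier3 at 1807, Nr4a1 at 160 and Fos at 50.7. Without it the Junb call in the untreated contrast was lost.

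Other immediate early genes were listed as well. Of 45 listed, 41 were tested, and in siAcly Ut 4.88% of these rose and 0% fell, beside the 0.138% and 0.0488% of all genes. Gadd45g, a growth arrest and DNA damage gene, and Maff, a small MAF transcription factor, rose by 1.07 (SE 0.22, adjusted p = 0.0481) and 0.99 (SE 0.19, adjusted p = 0.0481). Averaged over treatments 4 rose (9.76%) and 1 fell (2.44%), beside 2.73% and 2.03% of all genes. Those that rose were Btg2, an antiproliferative gene, at 0.88 (SE 0.16, adjusted p = 0.0041), Gadd45g at 0.71 (SE 0.11, adjusted p = 0.00105), Maff at 0.62 (SE 0.10, adjusted p = 0.00137) and Csrnp1 at 0.36 (SE 0.09, adjusted p = 0.0307). Trib1, a pseudokinase gene, fell by 0.51 (SE 0.11, adjusted p = 0.0117). None of the 20 listed kinases and factors upstream of immediate early genes passed in either contrast. In the heat shock list Cryab rose by 0.80 (SE 0.21, adjusted p = 0.0329) and Hsph1 fell by 0.43 (SE 0.09, adjusted p = 0.0113), and in the glucocorticoid response list Pdk4 fell by 0.72 (SE 0.16, adjusted p = 0.0171).

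In liver no member passed the test between HC and STD. Here 8 of the 10 members were tested, since Fosb and Ier3 were too low. By limma 0% of 11497 genes were called, with 488 genes and none of the 8 members at an unadjusted p under 0.05. Klf6 was 72.2, 87.2, 91.1, 125 and 57.8 normalized counts in STD replicates 1 to 5 and 113, 100, 99.4, 133 and 106 in HC, with a log2 fold change of 0.39 (SE 0.18, n = 5 per group, adjusted p = 0.995). Most HC libraries exceeded most STD libraries, but the ranges overlapped. Egr1 was 100, 170, 379, 327 and 288 in STD and 301, 393, 298, 246 and 289 in HC, a log2 fold change of 0.41 (SE 0.30, adjusted p = 0.995). Atf3 was low, at 7.40 to 25.1 in STD and 12.8 to 42.8 in HC, and its 95% interval of −0.22 to 1.41 is wide. The median of the 8 members was 0.03 on the log2 scale, with 4 higher and 4 lower, and over all genes it was −0.01.

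Single liver libraries departed more than the groups did. Jun was 288, 235, 302, 246 and 781 in STD and 356, 555, 261, 192 and 275 in HC, so STD replicate 5 and HC replicate 2 stood above the rest. Nr4a1 was 72.5, 30.3, 153, 39.8 and 199 in STD and 47.2, 127, 32.6, 90.9 and 28.9 in HC, again with its highest value in STD replicate 5. That library is the liver library with muscle fibre mRNA, in which 9 of the 10 fibre markers exceeded every other liver library and of 7 satellite cell and regenerating fibre markers Myh8, at 239, was above 0 and Pax7, Myf5, Myod1, Myog, Myh3 and Mymk were at 0. The part of muscle mRNA in its Jun and Nr4a1 values was not tested, and without it 0 members were called. Junb was 424, 286, 834, 216 and 367 in STD and 327, 302, 408, 195 and 337 in HC, with the highest value in STD replicate 3. Ier2 ran from 160 to 272 in STD and from 135 to 249 in HC, and Fos from 22.9 to 35.6 and from 26.9 to 48.5. Ier3 was 4.19 to 11.6 in STD and 3.91 to 16.5 in HC.

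In soleus the members with the largest differences between diets were Atf3, Egr1, Fosb and Fos, and none passed the test. Atf3 was 941, 749, 520, 296 and 3014 in STD replicates 1 to 5 and 502, 6248, 5530, 4853 and 920 in HC. HC replicates 2, 3 and 4 and STD replicate 5 were high and HC replicates 1 and 5 lay within the range of the other STD libraries, and the log2 fold change was 1.58 (SE 0.75, n = 5 per group, adjusted p = 0.979). Egr1 was 205, 199, 143, 130 and 617 in STD and 312, 731, 382, 558 and 502 in HC, with a log2 fold change of 1.14 (SE 0.36, adjusted p = 0.833). STD replicate 5 was again high, and the other 4 STD libraries were below all 5 HC libraries. Nr4a1 was 1527, 1619, 1359, 1403 and 1739 in STD and 1779, 2580, 2426, 2537 and 1693 in HC, a log2 fold change of 0.51 (SE 0.13, adjusted p = 0.746). Fos was 244, 328, 418, 197 and 560 in STD and 310, 802, 599, 617 and 462 in HC, a log2 fold change of 0.70 (SE 0.29, adjusted p = 0.972), and Fosb was 8.32, 23.2, 13.8, 26.5 and 19.2 in STD and 9.27, 70.9, 52.0, 58.4 and 18.1 in HC (0.92, SE 0.51, adjusted p = 0.99). The same 3 HC libraries, replicates 2, 3 and 4, held the 3 highest values of Atf3, Fosb, Fos and Nr4a1. By limma 0% of 12067 genes were called, with 609 genes and 3 members, Nr4a1, Egr1 and Fos, at an unadjusted p under 0.05. The median over members was 0.38 on the log2 scale against −0.01 over all genes.

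**Figure D2:**
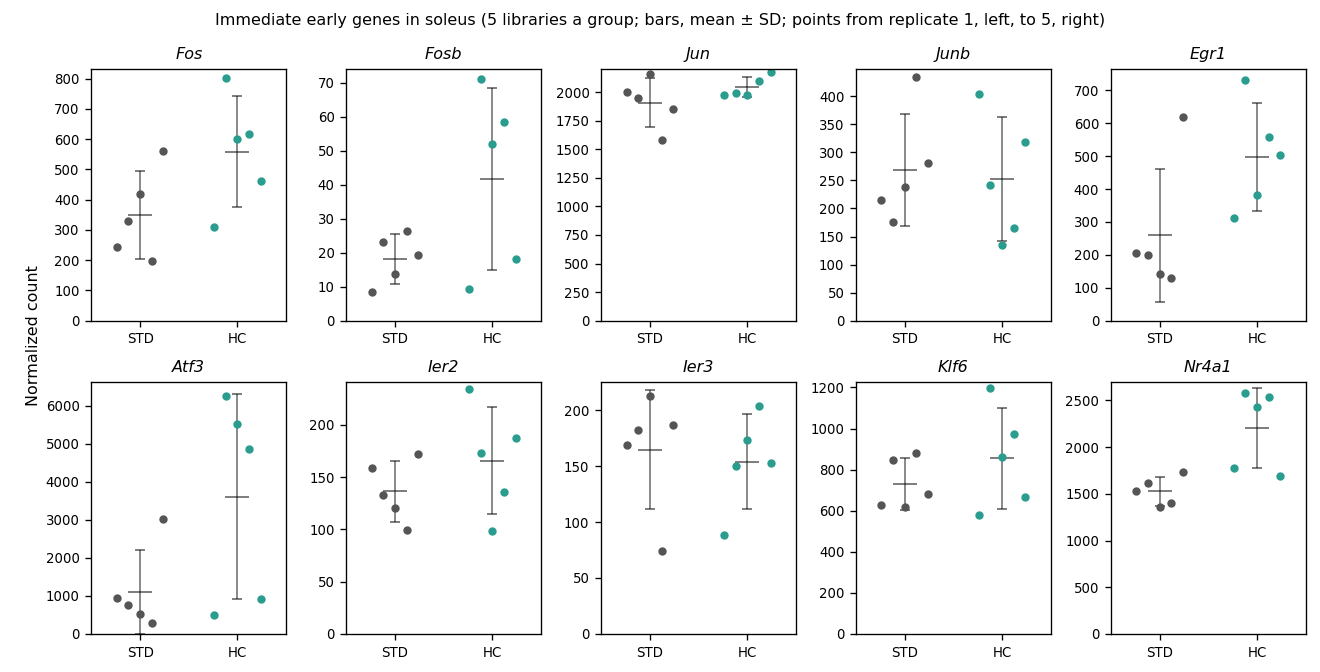
Normalized counts of each member, on linear axes from 0, in the 10 soleus libraries, each point 1 library from replicate 1 at the left to 5 at the right of its group (STD or HC on the x axis), with bars for mean ± SD. HC replicates 2, 3 and 4 carry the highest Atf3 (4853 to 6248), Fos, Fosb and Nr4a1, and STD replicate 5 (Atf3 3014) is apart from the other STD libraries.

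Jun, Junb, Ier2 and Ier3 had log2 fold changes between −0.14 and 0.25 in soleus, and Klf6 shared the pattern of HC replicates 2, 3 and 4 in part. Klf6 was 625, 845, 619, 882 and 679 in STD replicates 1 to 5 and 580, 1196, 860, 973 and 669 in HC, so that HC replicates 2, 3 and 4 were the highest of their group but overlapped with STD, with a log2 fold change of 0.20 (SE 0.18). Jun was 1583 to 2156 in STD and 1974 to 2174 in HC, with a log2 fold change of 0.10 (95% interval −0.07 to 0.28), the narrowest interval of the 10 members. Junb was 134 to 404 in HC and 176 to 434 in STD, at −0.14 (SE 0.30). Ier3 was 88.4 to 204 in HC and at most 213 in STD, at −0.07 (SE 0.28), and Ier2 had a log2 fold change of 0.25 (SE 0.22). Over deviations from group means, the Pearson r of Ier3 was 0.76 with Fos, 0.65 with Atf3, 0.47 with Nr4a1 and 0.25 with Fosb. Junb in HC replicates 2, 3 and 4 was 241, 134 and 165, below the 404 and 318 of replicates 1 and 5, the reverse of Atf3. Summed over the heat shock list, the HC libraries were 84806, 110713, 110860, 94057 and 65659 and the STD libraries 80323, 75131, 66238, 60768 and 96490. These sums were highest in HC replicates 2 and 3, followed by STD replicate 5 and HC replicate 4, the 4 libraries with the highest Atf3. Summed over the glucocorticoid response list, HC libraries were 58929, 54267, 52199, 50958 and 60926 and STD libraries 63968, 59117, 61965, 74573 and 60479. The sum over 6 fibroblast markers was 3157 to 5229 in STD and 2827 to 10642 in HC, with 0 of 6 called (median 0.41), and that over the leukocyte markers was 266 to 416 and 157 to 810. Over 5 Schwann cell markers the sum was 1200 to 1608 in STD and 1729 to 6225 in HC, which did not overlap, with 0 of 5 called (median 0.97). The part of these sums in the members' values was not tested.

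In gastrocnemius 3 members passed the test at day 2 in injured muscle with HC against uninjured muscle. Without HC the same genes also lay apart from C but did not pass, and no member passed between the 2 injured groups. Ier3 was 139, 111 and 153 normalized counts in C and 470, 386 and 424 in CTX-HC 2 DPI, and rose by 1.67 (log2 fold change, SE 0.23, n = 3 per group, adjusted p = 0.00583). Atf3 was 154, 131 and 249 in C and 598, 615 and 1499 in CTX-HC 2 DPI, and rose by 2.25 (SE 0.47, adjusted p = 0.0219). Neither gene's groups overlapped. Nr4a1, which stands among the most abundant members in resting muscle, was 5929, 5183 and 4446 in C and 980, 1599 and 2107 in CTX-HC 2 DPI, and fell by 1.79 (SE 0.46, adjusted p = 0.0359). Thus 2 of 10 members rose, where 5.34% of 14033 genes rose, and 1 fell, where 4.59% fell. Klf6 was 1130, 817 and 1216 in C and 2692, 1594 and 1557 in CTX-HC 2 DPI, apart from C, with a log2 fold change of 0.86 (SE 0.30, adjusted p = 0.0735), and Junb was 696, 493 and 838 in C and 1722, 1097 and 984, also apart (0.90, SE 0.59, adjusted p = 0.284). Fos, Fosb, Jun, Egr1 and Ier2 overlapped with C. In this contrast 5037 genes and 4 of the members had an unadjusted p under 0.05 by limma. The share of all genes with groups apart was not counted in this or the other gastrocnemius contrasts, so groups that lie apart are only described. The Ier3 call was kept in all 6 fits that left out 1 of these libraries. That of Atf3 was lost without C replicate 1 or 2 or CTX-HC 2 DPI replicate 1 or 2 (adjusted p up to 0.118), and that of Nr4a1 was lost in 5 of 6 fits, all but the fit without CTX-HC 2 DPI replicate 3 (adjusted p up to 0.165).

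Injury without HC gave values of the same kind that did not pass the test. Ier3 was 469, 363 and 373 in CTX 2 DPI, above all C libraries, with a log2 fold change of 1.58 (SE 0.23, adjusted p = 0.056). Atf3 was 598, 405 and 467, also above C, at 1.49 (SE 0.47, adjusted p = 0.268), and Nr4a1 was 2808, 3024 and 2488, below C, at −0.90 (SE 0.46, adjusted p = 0.369). Ier2, at 251, 300 and 296 against 222, 204 and 199 in C, was apart as well, with a log2 fold change of 0.43 (SE 0.39, adjusted p = 0.576). By limma 0% of genes were called in this contrast, with 2095 genes and 2 members, Ier3 and Atf3, at an unadjusted p under 0.05. The group holds CTX 2 DPI replicate 3, whose leukocyte and fibre sums lay within the C range, and the part of that library in the group's spread was not tested. Leaving out any 1 library of the contrast gave 0 members called. The contrasts with and without HC share the C libraries.

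Between CTX-HC 2 DPI and CTX 2 DPI no member passed, so a difference between diets at day 2 was not shown. By limma 0% of genes were called, with 1005 genes and 1 member, Klf6, at an unadjusted p under 0.05. Ier3 differed by 0.09 on the log2 scale (95% interval −0.41 to 0.59), whereas for Atf3 the interval ran from −0.26 to 1.78 and for Klf6 from 0.05 to 1.35 (adjusted p = 0.662). Nr4a1 was lower in all 3 CTX-HC libraries than in all 3 CTX libraries, with a log2 fold change of −0.89 (SE 0.46, adjusted p = 0.662). Jun was 6769, 3374 and 6189 in CTX 2 DPI against 3521, 3344 and 3800 in CTX-HC 2 DPI, at −0.55 (SE 0.31, adjusted p = 0.662). Junb in CTX 2 DPI ranged most widely, at 3041, 1293 and 562.

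**Figure D3:**
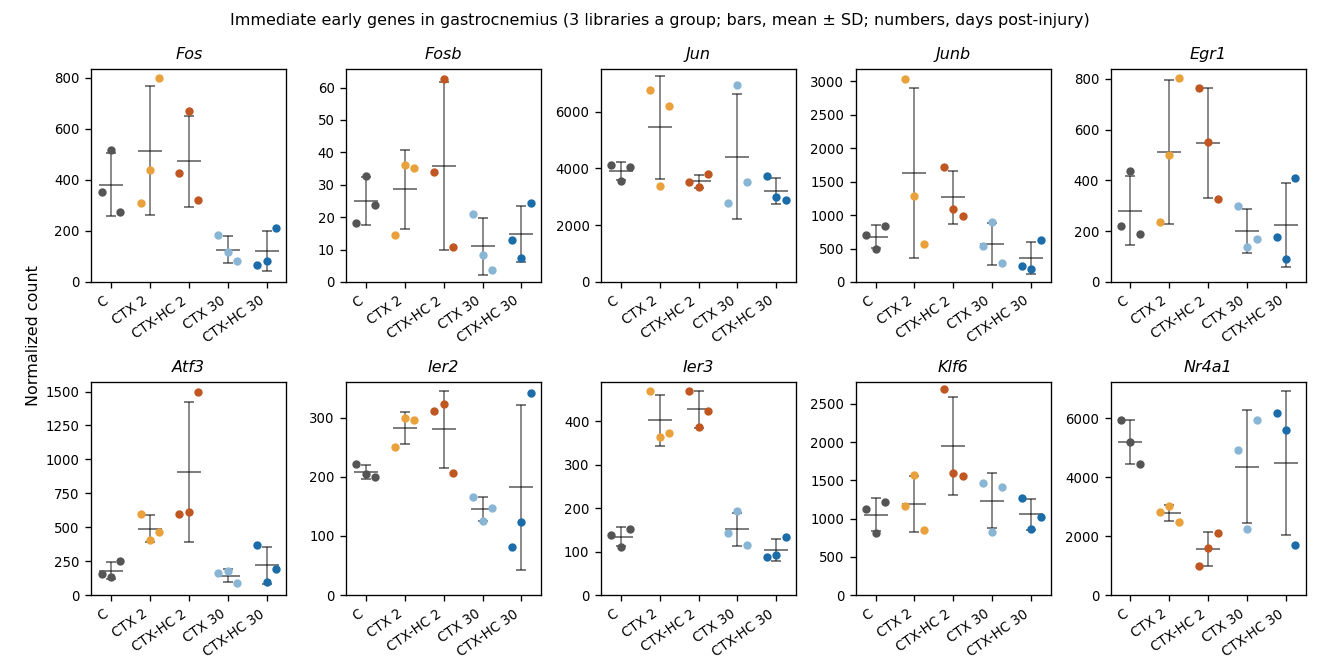
Normalized counts of each member, on linear axes from 0, in the 15 gastrocnemius libraries by group (x axis), each point 1 library, with bars for mean ± SD. Ier3 is 363 to 470 in the 6 libraries of day 2 and 88.6 to 193 in the 9 others, and Nr4a1 is 980 to 2107 in CTX-HC 2 DPI and 4446 to 5929 in C.

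From day 2 to day 30 several of these genes fell. With HC in the diet 4 of 10 members fell, Ier3, Fos, Atf3 and Junb, where 5.54% of all genes fell and 4.2% rose. Ier3 was 88.6, 91.6 and 134 in CTX-HC 30 DPI and fell by 2.04 (SE 0.23, adjusted p = 0.00144). Fos was 428, 671 and 321 in CTX-HC 2 DPI and 67.8, 82.3 and 210 in CTX-HC 30 DPI, and fell by 2.09 (SE 0.47, adjusted p = 0.0218). No day 30 value of either gene reached a day 2 value. Atf3 was 370, 99.5 and 194 at day 30 and fell by 2.08 (SE 0.47, adjusted p = 0.022), and Junb was 237, 191 and 628 and fell by 2.01 (SE 0.59, adjusted p = 0.0496). Klf6 was 1275, 871 and 1020 at day 30, below all day 2 values, with a log2 fold change of −0.85 (SE 0.30, adjusted p = 0.0806). Nr4a1 was the member that was higher at day 30, at 6181, 5582 and 1685, with a log2 fold change of 1.38 (SE 0.46, adjusted p = 0.0713). Its value in replicate 3 lay within the day 2 range. In that library, labelled CTX-HC 30 DPI replicate 3, Junb, Fos, Fosb, Egr1, Ier2 and Ier3 were the highest of the group, and without it 7 members were called instead of 4. The calls of Fos, Junb and Atf3 were each lost without CTX-HC 2 DPI replicate 1 or CTX-HC 30 DPI replicate 2 (adjusted p up to 0.109 for Fos, 0.191 for Junb and 0.0945 for Atf3), and those of Fos and Junb also without CTX-HC 2 DPI replicate 2 or CTX-HC 30 DPI replicate 1. The Junb call was further lost without CTX-HC 2 DPI replicate 3, and the Ier3 call was kept in all 6 such fits. Fitted on these 2 groups alone, none of the 4 was called, with adjusted p between 0.0521 for Ier3 and 0.136 for Atf3.

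Without HC, Ier3 was the member that fell from day 2 to day 30, 1 of 10, where 0.214% of all genes fell and 0.0428% rose. It was 144, 193 and 116 in CTX 30 DPI and fell by 1.43 (SE 0.23, adjusted p = 0.0342), a call lost in 5 of 6 fits without 1 library, all but the fit without CTX 30 DPI replicate 2 (adjusted p between 0.0181 and 0.187). Without CTX 30 DPI replicate 1, the library of this group with the leukocyte and fibroblast mRNA given above, the Ier3 log2 fold change was −1.41 (adjusted p = 0.109). Fos was 310, 438 and 798 in CTX 2 DPI and 183, 116 and 82.5 in CTX 30 DPI, which did not overlap, with a log2 fold change of −1.97 (SE 0.47, adjusted p = 0.0862). Atf3 at 164, 180 and 87.8 (−1.81, SE 0.47, adjusted p = 0.107) and Ier2 at 166, 125 and 147 (−0.95, SE 0.39, adjusted p = 0.194) were also below all day 2 values. CTX 30 DPI replicate 2 held the highest Jun of the table, 6935, and the lowest Nr4a1 of its group, 2241. That library and C replicate 2 carry titles of a separate number series, and with the series as a term in the fit the Ier3 fall was no longer called (adjusted p = 0.0723), and of the day 2 calls against C with HC the Ier3 rise was kept (adjusted p = 0.0174) while Atf3 and Nr4a1 had adjusted p values of 0.0523 and 0.0549.

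At day 30 no member passed against uninjured muscle. Without CTX 30 DPI replicate 1, in which 8 of 10 members were above their group mean, 0 members were called for CTX 30 DPI against C or for CTX-HC 30 DPI against CTX 30 DPI. By limma 0% of genes were called for CTX 30 DPI against C, with 437 genes at an unadjusted p under 0.05, and 0% for CTX-HC 30 DPI against C, with 388. In both contrasts Fos was the member at an unadjusted p under 0.05: it was 353, 517 and 273 in C, above all 6 libraries of day 30, with log2 fold changes of −1.60 (SE 0.47, adjusted p = 1) and −1.79 (SE 0.47, adjusted p = 1). Ier3 was near its level in C, with 95% intervals of the log2 fold change of −0.35 to 0.65 for CTX and −0.87 to 0.13 for CTX-HC. For CTX-HC against CTX at day 30 0% of genes were called, with 106 genes and 1 member, Ier3, at an unadjusted p under 0.05 (log2 fold change −0.52, SE 0.23, adjusted p = 1). The HC difference at day 30 minus that at day 2 gave 0% of genes, with 355 genes and none of the members at an unadjusted p under 0.05, and the largest value for a member was −0.90 (SE 0.42, adjusted p = 0.999) for Klf6.

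Marker sums of some cell types also differed between the gastrocnemius groups. Over 12 leukocyte markers the sum was 803 to 3675 in C, 1911 to 10330 in CTX 2 DPI, 6069 to 25986 in CTX-HC 2 DPI, 589 to 5408 in CTX 30 DPI and 763 to 8445 in CTX-HC 30 DPI. Of the 10 tested, Csf3r, Cd68 and Cd14 rose in CTX-HC 2 DPI against C and 5 fell from day 2 to day 30 with HC. The markers at 0 in some libraries were S100a8, S100a9, Cd3e and Cd79a. Over 10 muscle fibre markers, none of which was at 0 in any library, the sum was 3150690 to 4264590 in C, 1158120 to 1852250 in CTX-HC 2 DPI and 2131620 to 3314720 in CTX 2 DPI, and 2 of the 10, Tnnt1 and Myh7 of slow fibres, fell in CTX-HC 2 DPI against C. Over 6 fibroblast markers, none of which was at 0, the sum was 11991 to 16271 in C, 28312 to 61639 in CTX 2 DPI and 27241 to 107076 in CTX-HC 2 DPI, with median log2 fold changes against C of 0.85 and 1.67 and 0 of 6 called in either contrast. Over 7 satellite cell and regenerating fibre markers it was 2617 to 4193 in C, 3984 to 11248 in CTX 2 DPI and 2643 to 4423 in CTX-HC 2 DPI, again with 0 of 7 called. The library labelled CTX-HC 30 DPI replicate 3 had a fibre sum of 1936210 against 3686410 and 4533210 in the other libraries of its group. The part of these cells in the values of Ier3, Atf3 and Nr4a1 was not tested, and in whole muscle fewer cells of a type and less RNA per cell cannot be told apart.

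Of the 45 other immediate early genes listed and tested, 4 rose (8.89%) and 2 fell (4.44%) in CTX-HC 2 DPI against C, beside 5.34% and 4.59% of all genes, and 5 fell (11.1%) and 1 rose (2.22%) from day 2 to day 30 with HC, beside 5.54% and 4.2%. Those that rose in CTX-HC 2 DPI against C were Dusp5, a phosphatase that acts on ERK, by 2.49 (SE 0.71, adjusted p = 0.0452), Myc by 2.16 (SE 0.58, adjusted p = 0.0406), Ier5 by 1.59 (SE 0.38, adjusted p = 0.0305) and Ier5l by 1.21 (SE 0.36, adjusted p = 0.0497). Gadd45g fell by 2.41 (SE 0.44, adjusted p = 0.0152), the reverse of its direction with siAcly in AML12 cells, and Klf9 fell by 1.01 (SE 0.25, adjusted p = 0.0332). From day 2 to day 30 with HC Fosl1, another Fos gene, fell by 4.36 (SE 0.89, adjusted p = 0.0144), Socs3, a feedback inhibitor of cytokine signalling, fell by 2.84 (SE 0.75, adjusted p = 0.0373), Dusp5, Myc and Ier5l also fell, and Klf9 rose by 1.17 (SE 0.25, adjusted p = 0.0185). Of the 20 upstream kinases and factors, Map2k6, a kinase of the p38 pathway, fell by 1.69 (SE 0.39, adjusted p = 0.0276) at day 2 with HC against C, and Map2k6, Map2k3 and Creb1 rose from day 2 to day 30, by 1.41 (SE 0.39, adjusted p = 0.0414), 0.71 (SE 0.17, adjusted p = 0.0266) and 0.63 (SE 0.18, adjusted p = 0.0437). Cryab of the heat shock list rose by 1.77 (SE 0.43, adjusted p = 0.031) and fell by 2.03 (SE 0.43, adjusted p = 0.0168) in these contrasts. Of 10 glucocorticoid response genes 3 rose (30%) and 1 fell (10%) at day 2 with HC against C, beside the 5.34% and 4.59% of all genes. Mt1, Mt2 and Angptl4 rose, Mt1 by 3.12 (SE 0.57, adjusted p = 0.0148). The gene that fell was Klf9, which is on both lists. Mt1 and Mt2, the metallothioneins, fell from day 2 to day 30 in both diets: with HC the log2 fold change was −3.73 (SE 0.57, adjusted p = 0.00475) for Mt1 and −4.69 (SE 0.57, adjusted p = 0.00165) for Mt2, and without it −4.11 (SE 0.57, adjusted p = 0.0166) and −4.26 (SE 0.57, adjusted p = 0.0166).

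**Figure D4:**
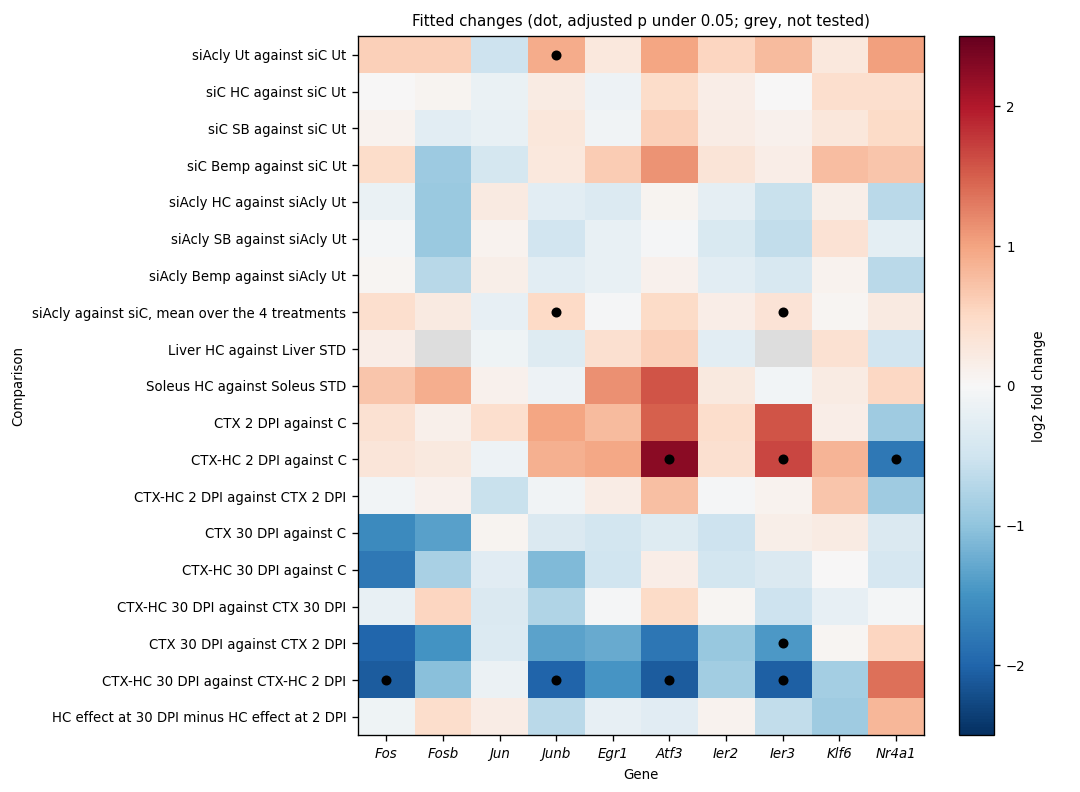
Log2 fold change of the 10 members (x axis) in the 19 comparisons (y axis) as a color from blue (lower) to red (higher), with a black dot for an adjusted p under 0.05 and grey for members not tested. The 11 dots are on Junb and Ier3 for siAcly and on Ier3, Atf3, Nr4a1, Fos and Junb in gastrocnemius.

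The spread of the members between libraries of a group was larger than that of most genes. The within-group SD on the log2 scale had a median of 0.53 over the 10 members in AML12, 0.58 over the 8 tested in liver, 0.55 in soleus and 0.64 in gastrocnemius, where the median over all genes tested was 0.31, 0.23, 0.22 and 0.40. The members above the 90th percentile of all genes numbered 4 of 10 in AML12, 5 of 8 in liver, 6 of 10 in soleus and 0 of 10 in gastrocnemius. Set against genes whose mean lay within 0.5 of theirs on the log2 scale, the numbers above the 90th percentile were 3, 4, 8 and 3. Atf3 in soleus had the highest SD of any member, 1.48, at the 99.5th percentile, and Nr4a1 in liver had 1.05, at the 99.1 percentile. Jun in soleus, at 0.13, was the lowest. These SDs set what the tests could show: in liver the standard errors of the members ran from 0.18 for Ier2 and Klf6 to 0.53 for Nr4a1 on the log2 scale.

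**Figure D5:**
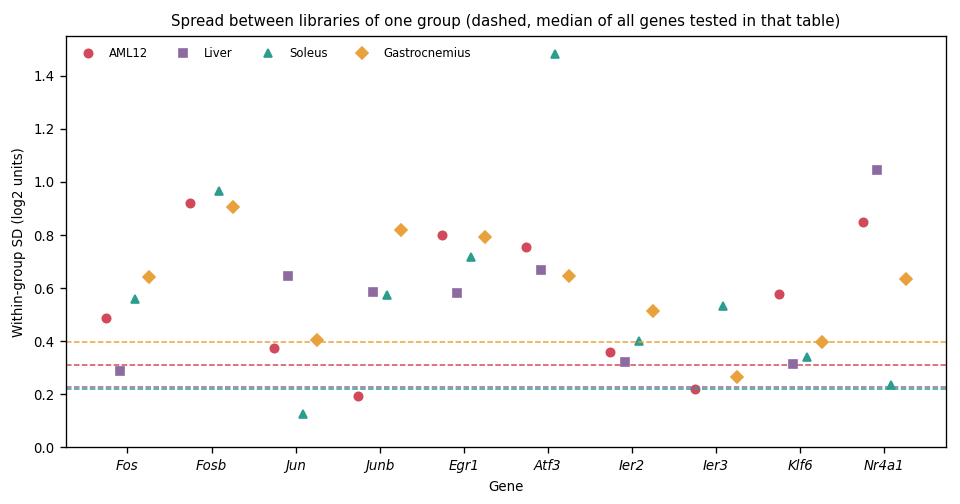
Within-group SD on the log2 scale of each member in each of the 4 tables, with the gene on the x axis, a marker shape and color for each table and a dashed line at the median of all genes tested in that table. Members lie above the median line in 8 of 10 cases in AML12, 8 of 8 in liver, 9 of 10 in soleus and 9 of 10 in gastrocnemius.

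Members did not vary together as a block. Over deviations from group means, the median Pearson r of the pairs was 0.33 over 45 pairs in 24 AML12 libraries, 0.20 over 28 pairs in 10 liver libraries, 0.25 over 45 pairs in 10 soleus libraries and 0.0037 over 45 pairs in 15 gastrocnemius libraries. In AML12 the range ran from −0.91 for Nr4a1 and Jun to 0.87 for Ier2 and Atf3, and in soleus the highest were 0.93 for Klf6 and Fosb and 0.92 for Nr4a1 and Atf3. All points of a table share libraries, depth and normalization, and these values are descriptions.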

How the data were processed

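The 4 tables of normalized gene counts analysed here are for AML12 cells, liver, soleus and gastrocnemius. Reads had been trimmed (FASTQ toolkit 1.0.0) and mapped to mm10 by STAR within the RNAseq Alignment application, version 2.0.2. The authors then divided the counts by a size factor per library with DESeq2 (Illumina package 1.1) and deposited the resulting signal, 1 value per gene and library. Whole reads could not be recovered from it, so no count test was run. The size factors remove depth, and low values keep the counting error of few reads. The labels give rRNA depletion for liver and soleus libraries, whereas the methods of the study name an mRNA kit for all.

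Columns were matched to samples by their names, and 0 columns were left unmatched. A gene was tested if its value was 10 or more in a number of libraries equal to the size of the smallest group. Testing used limma 3.58.1 in R 4.3.3 on log2(value + 1), with all groups of a table in 1 fit, a mean-variance trend and Benjamini-Hochberg adjustment over all genes tested, so fold changes of low genes are understated. The fit was tested on simulated data for each table. Spread, library sets, correlations and figures used Python 3.11.15 with numpy 2.4.6, pandas 2.3.3, scipy 1.17.1 and matplotlib 3.10.9. Promoter sequences are from RefSeq (GRCm38.p6). All 10 members are named in every comparison, and for the other lists the 2 called genes with the largest rise and the 2 with the largest fall, with further called genes named after their values were seen where a count was 5 or fewer. The members and the lists were chosen with earlier results of these data known. Alternatives were another pseudocount, no filter, recomputed size factors, the study's threshold, 2 groups only, number series as a covariate, a replicate block and each library left out.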

Additional observations from a re-analysis of the deposited data

Results flagged for a closer look

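Of 40 groups of 5 libraries tested for a library far from the rest by Dixon's test, 4 held such a library. The chance rate of about 1 in 20 holds for independent values with a normal distribution. These values were not log-transformed and the 40 tests share libraries, so the count does not measure an excess. Fosb was 23.2 normalized counts in liver HC replicate 4 against 1.97 to 4.69 in the other 4 libraries of the group, with a gap over the whole range of 0.872. Jun was 781 in liver STD replicate 5 against at most 302 in the others, with a gap over range of 0.878. This is the liver library with muscle fibre mRNA, and the part of that mRNA in the Jun value was not tested. In soleus, STD replicate 5 stood apart for Egr1, at 617 against at most 205 (gap over range 0.845), and for Atf3, at 3014 against at most 941 (0.762).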

How the results depend on the processing

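Across 19 comparisons, 291 counts of called members were recomputed, and 239 lay within 1.5 times the reported count. Of 172 recomputed values of called members 114 kept direction and call, 58 lost the call and 0 changed direction. For siAcly Ut against siC Ut (1 member called) the study's threshold gave 0, the number series as a covariate 2, the 2 groups alone 0 and leaving out 1 library 0 to 2. For the average over treatments (2 called) the study's threshold, an unadjusted p of 0.05 or lower with an absolute log2 fold change of 1 or more, gave 0 and leaving out 1 library 1 to 2. Chosen after seeing the data, leaving out libraries 11 and 13 (labelled siC Bemp replicate 1 and siC Ut replicate 3) gave 0 and 1, and the library set as a covariate 2 and 4. The study's threshold gave 1 in soleus (Egr1), 2 for CTX 2 DPI against C, 1 for CTX 30 DPI against C, 1 for CTX-HC 30 DPI against C (0 reported in each) and 5 for CTX 30 DPI against CTX 2 DPI (1 reported). That last count was 0 with the number series, 0 with the 2 groups alone and 0 to 1 without 1 library. For CTX-HC 2 DPI against C (3 called) the number series gave 1, the 2 groups alone 5 (adding Junb and Klf6) and leaving out 1 library 1 to 3. For CTX-HC 30 DPI against CTX-HC 2 DPI (4 called) the 2 groups alone gave 0 and leaving out 1 library 1 to 7. In all other comparisons leaving out 1 library gave 0. The cause was not tested, except that fewer libraries leave fewer degrees of freedom.

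Counts over all genes moved as well. For siAcly Ut 23 genes became 7 without the filter, 188 with the number series, 1 with the 2 groups alone, 1 without libraries 11 and 13, 1058 with the library set and 510 at the study's threshold. For the average 586 became 1441 with the number series, 297 without those libraries, 2912 with the library set and 156 at the study's threshold. For CTX-HC 2 DPI against C 1393 became 232 with the number series, 4307 with the 2 groups alone and 2594 at the study's threshold. For CTX-HC 30 DPI against CTX-HC 2 DPI 1367 became 24 with the 2 groups alone and 2147 at the study's threshold, and for CTX 30 DPI against CTX 2 DPI 36 became 4, 2 and 1246 with the number series, the 2 groups alone and the study's threshold. In liver and soleus, deviations of same-numbered samples correlated at 0.0243 to 0.0833 and −0.112 to 0.403, which does not pair them, and with a replicate block 0 members and 0 genes were called. Fosb in AML12 cells and Fosb and Ier3 in liver rest on few reads, which limits what could be detected there.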

Other observations

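By Pearson correlation with the mean of the members' deviations from group means, the genes most like the members in AML12 cells were Nadk (r = 0.95), Areg (0.94), Rdh10 (0.94), Ces2e (0.94) and Fitm2 (0.94), over 24 libraries. In soleus they were Ppargc1a (0.98), Mapk6 (0.97), Cebpg (0.97), Emp1 (0.97) and Hyou1 (0.97), over 10 libraries. In liver they were Snx15 (0.95), Pofut2 (0.94), Mul1 (0.91), Tfeb (0.91) and Txnrd3 (0.90), over 10 libraries, and in gastrocnemius Nipsnap1 (0.93), Cnpy3 (0.93), Dapk1 (0.92), Meis3 (0.92) and Idnk (0.92), over 15 libraries. Each list was picked as the top of all genes tested in its table over few libraries, and the libraries share depth and normalization, so these values are descriptions.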
